A study of Mus musculus with 15 samples.

Results

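The 9 genes described here, Cdh5, Kdr, Tek, Tie1, Flt1, Emcn, Cldn5, Eng and Egfl7, are used as markers of blood vessel endothelium. They were measured by bulk RNA-seq in adipocyte precursor cells sorted from the subcutaneous fat of C57Bl/6 mouse pups. Which cells in the sorted samples made the RNA of each gene was not tested. The 9 genes were picked because endothelial markers had higher values in progenitors on low n6/n3 milk, so that contrast is given as a description, without a test. All 9 were found in both deposited tables, among 23118 genes in preadipocytes and 23347 in progenitors. Wildtype pups were cross-fostered to dams giving milk of low or high n6/n3 ratio (the balance of omega-6 over omega-3 polyunsaturated fatty acids), for 10 days by one protocol and 12 by another. CD24- cells, called preadipocytes, gave 4 libraries on low-ratio milk (108, 114, 119 and 133) and 3 on high-ratio milk (1015, 1017 and 1019). CD24+ cells, called progenitors, gave 4 libraries on low-ratio milk with the same numbers and 4 on high-ratio milk (1015, 1017, 1018 and 1019). The labels of libraries 108, 114, 119 and 133 of preadipocytes disagree: their source name says high, their characteristics say low, and the characteristics were used. The labels do not name sort markers other than CD24 and do not say how many pups went into a library, so the tests below measure the spread between libraries, part of which may be technical.

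Endothelial cells line blood vessels and are held together by junctions built from VE-cadherin, the product of Cdh5, and claudin-5, the product of Cldn5. Their growth and survival are steered by receptor tyrosine kinases: Kdr and Flt1 bind vascular endothelial growth factors, and Tek (also called Tie2) binds angiopoietins and works with the related receptor Tie1. Eng encodes endoglin, a co-receptor for ligands of the TGF-beta and BMP family that is also carried by many stromal cells, Emcn encodes the surface sialomucin endomucin, and Egfl7 encodes a secreted protein of the vessel wall. In growing fat, capillaries and adipocyte precursors lie next to each other, and some precursors sit on the vessel wall.

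On GRCm38, Cdh5 (ENSMUSG00000031871) spans 104101625 to 104144511 of chromosome 8 (plus strand), and Kdr (ENSMUSG00000062960) spans 75932827 to 75978458 of chromosome 5 (minus strand). Tek (ENSMUSG00000006386) spans 94739289 to 94874976 of chromosome 4 (plus strand), and Tie1 (ENSMUSG00000033191) spans 118471191 to 118490061 of it (minus strand). All 9 code for proteins by the annotation, and each value is a sum over a whole gene, so membrane and soluble forms of Flt1 were not told apart.

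The stretches upstream of 4 of these genes are shown as examples: Kdr, Tie1 and Emcn went with each other from library to library, and Tek took another course. Each is the 250 bases before the RefSeq start on GRCm38.p6, written 5′ to 3′ on the strand of the gene: Kdr at chr5:75978456-75978705 (minus), Tie1 at chr4:118489850-118490099 (minus), Emcn at chr3:137340828-137341077 (plus) and Tek at chr4:94739039-94739288 (plus). Capitals mark every match, on either strand, to GGAAG (a core bound by ETS factors), ACAGGAA (the core with an ACA before it) or GGGCGG (a GC box).
Kdr: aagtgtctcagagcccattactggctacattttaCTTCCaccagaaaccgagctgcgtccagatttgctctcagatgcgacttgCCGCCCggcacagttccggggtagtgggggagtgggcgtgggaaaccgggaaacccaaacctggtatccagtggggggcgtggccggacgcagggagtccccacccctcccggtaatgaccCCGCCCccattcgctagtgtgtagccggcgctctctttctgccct
Tie1: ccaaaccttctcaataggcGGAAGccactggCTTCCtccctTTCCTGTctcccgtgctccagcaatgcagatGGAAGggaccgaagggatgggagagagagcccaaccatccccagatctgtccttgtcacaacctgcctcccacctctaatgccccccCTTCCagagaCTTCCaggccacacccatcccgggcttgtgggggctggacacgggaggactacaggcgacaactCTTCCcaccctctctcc
Emcn: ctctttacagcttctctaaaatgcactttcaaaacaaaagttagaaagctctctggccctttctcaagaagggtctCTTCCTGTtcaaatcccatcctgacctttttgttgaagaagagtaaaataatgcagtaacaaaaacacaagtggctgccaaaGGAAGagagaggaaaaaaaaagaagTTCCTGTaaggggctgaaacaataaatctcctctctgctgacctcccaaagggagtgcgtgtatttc
Tek: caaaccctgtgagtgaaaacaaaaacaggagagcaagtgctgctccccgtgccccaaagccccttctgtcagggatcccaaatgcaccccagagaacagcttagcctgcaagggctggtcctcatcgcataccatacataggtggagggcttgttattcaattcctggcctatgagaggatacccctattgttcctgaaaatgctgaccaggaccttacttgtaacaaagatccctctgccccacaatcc
ACAGGAA and GGAAG overlap where ACAGGAA is followed by G. RefSeq listed 10 such stretches for 8 of the 9 genes. GGAAG stood in 7 of these 10, against 64.1% of all 32851 upstream stretches of that length. ACAGGAA stood in 4 of 10, against 7.2% of all, and GGGCGG in 4 of 10, against 32.7% of all. Tie1 held 6 matches to GGAAG and Tek none to any of the 3 motifs. Cldn5, which went with the others, in progenitors largely through 2 libraries (given below), held no GGAAG or ACAGGAA. Egfl7, which did not go with them in progenitors, held 6 matches to GGAAG and 2 of the 4 stretches with ACAGGAA. All of these are matches of letters, not measured binding, and a link of the matches to the course of the genes was not tested.

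The labelled cell types were checked first. Cd24a, whose product was used for the sort, averaged 616 ± 52.1 (SD, n = 4) and 631 ± 76.5 (SD, n = 3) normalized counts in preadipocytes on low-ratio and high-ratio milk, and 2209 ± 210.4 and 2281 ± 442 (SD, n = 4 each) in progenitors. The precursor marker Pdgfra, the receptor for platelet-derived growth factor, averaged 16442 ± 4436 (SD, n = 4) and 12654 ± 1759 (SD, n = 3) normalized counts in preadipocytes on low-ratio and high-ratio milk, and 16363 ± 1840 and 16527 ± 1389 (SD, n = 4 each) in progenitors on low-ratio and high-ratio milk. A normalized count is the number of reads of a gene after scaling for depth. Ptprc, which marks leukocytes, had 22.3 ± 21.4 (SD, n = 4) and 45.3 ± 40.3 (SD, n = 3) in preadipocytes on low-ratio and high-ratio milk, and 43.7 ± 25.6 and 46.9 ± 39.7 (SD, n = 4 each) in progenitors. Estimated depth ranged from 13.8 to 68.7 M reads per library, and the member with the fewest reads in a library, Emcn in preadipocyte library 1015 on high-ratio milk, rested on about 29.8 reads. The authors normalized each population in a table of its own, so levels set across them below are given as CPM, the share of a gene in the summed normalized counts of its library scaled to 1e6, and are not tested.

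All 9 genes were present in every library, with Tek and Eng at the highest mean levels per length. Per kilobase of the median transcript length, Tek averaged 53.5 ± 6.88 CPM (SD, n = 4) in preadipocytes on low-ratio milk and 35.7 ± 1.29 (SD, n = 3) on high-ratio milk. It averaged 47.4 ± 8.75 in progenitors on low-ratio milk and 47.4 ± 8.73 (SD, n = 4 each) on high-ratio milk. Eng followed at 29.9 ± 3.60 and 28.3 ± 3.63 in preadipocytes on low-ratio and high-ratio milk, and at 37.1 ± 7.67 and 32.5 ± 1.09 in progenitors. Cdh5 came next, at 14.0 ± 3.51 and 12.9 ± 5.29 in preadipocytes on low-ratio and high-ratio milk, and at 24.7 ± 11.1 and 12.2 ± 3.08 in progenitors. In low-ratio progenitors Tek and Eng, and Eng and Cdh5, had SDs that overlapped, while in the other groups these neighbours stood apart by more than their SDs. In each group Cldn5, Egfl7, Flt1, Kdr, Tie1 and Emcn then followed in that order of this per-kilobase level. In preadipocytes on low-ratio milk their levels were 6.56 ± 1.87, 6.12 ± 3.19, 3.49 ± 2.62, 1.98 ± 0.52, 1.67 ± 0.49 and 1.20 ± 0.39, and neighbours in this row lay within the SDs of one another. With the longest transcript as the length, Tek was still first, Eng second and Emcn last in all 4 groups, while the order of the genes between them changed.

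**Figure D1:**
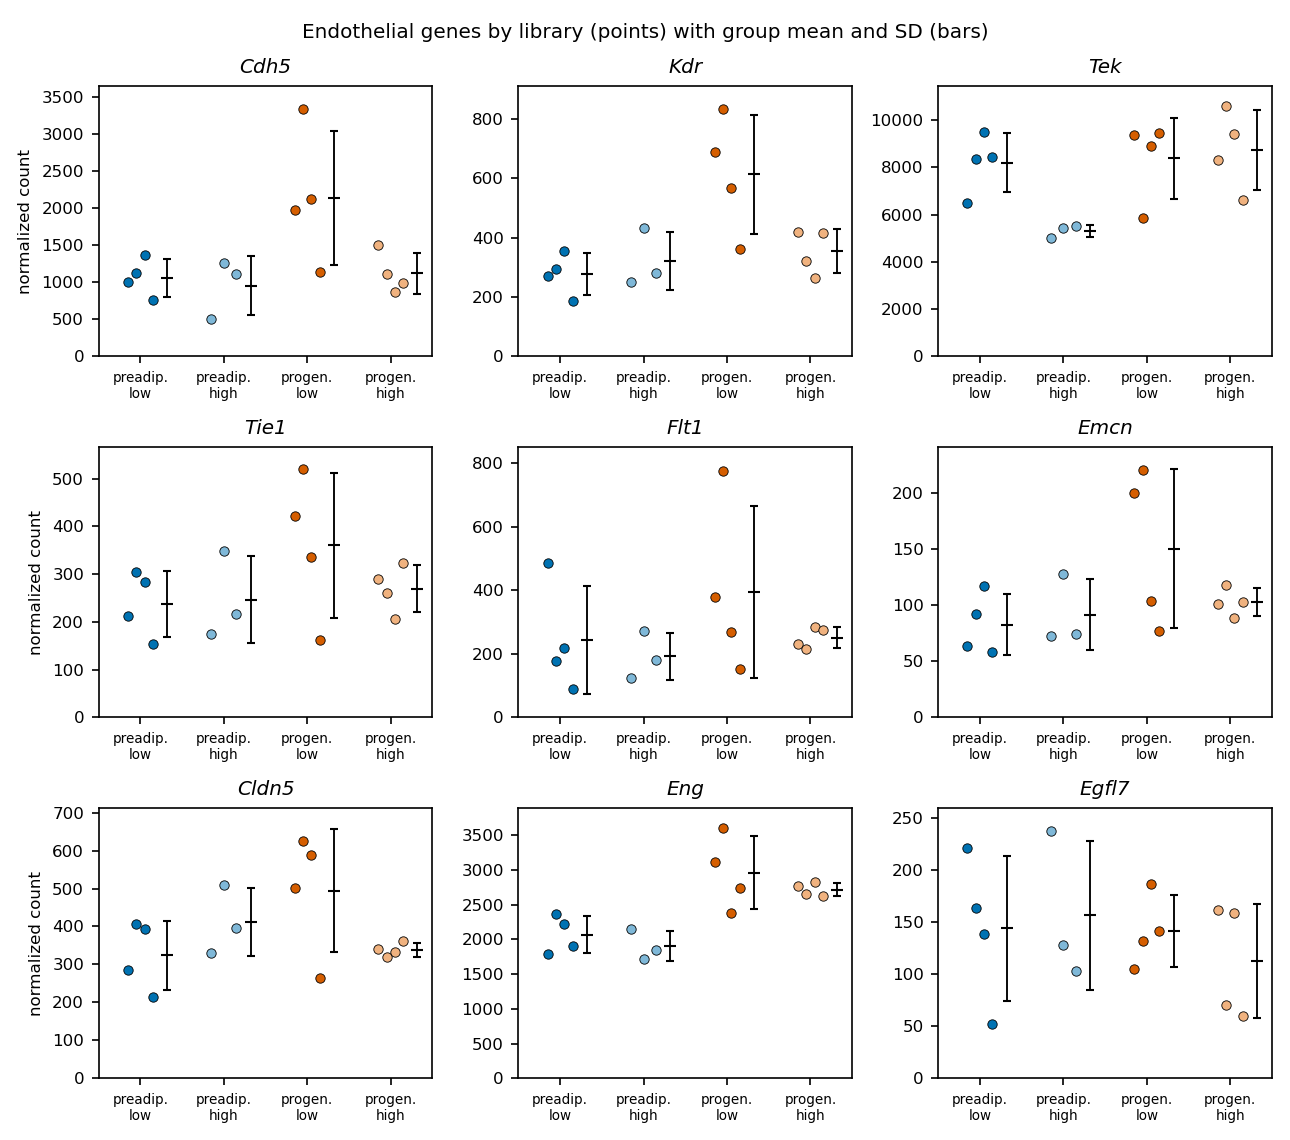
Normalized counts of the 9 endothelial genes (vertical axes from 0, scale set per gene) in each library (points) of preadipocytes and progenitors on low-ratio and high-ratio milk, with the group mean and SD beside the points. Tek is higher in all 4 low-ratio than in all 3 high-ratio preadipocyte libraries, while in the other genes and in progenitors the milk groups overlap.

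In bulk RNA, fewer cells of a type and less RNA per cell cannot be told apart, and this holds for every value below. In preadipocytes, whose values the choice of the genes did not use, 1 of the 9 genes changed with the milk. Tek had 6497, 8353, 9490 and 8431 normalized counts in the low-ratio libraries 108, 114, 119 and 133, against 5005, 5416 and 5507 in the high-ratio libraries 1015, 1017 and 1019. The groups did not overlap, and the lowest low-ratio value, in library 108, exceeded the highest high-ratio value. The mean was 8193 ± 1244 (SD, n = 4) on low-ratio and 5309 ± 268 (SD, n = 3) on high-ratio milk. The log2 fold change, low minus high, was 0.61 ± 0.13 (SE; limma, adjusted p = 0.0469), 1.53-fold higher on low-ratio milk. The call was close to the threshold: removing a trend on GC and length gave 0.53 (limma, adjusted p = 0.0657), and leaving out the trend and robust options gave an adjusted p of 0.116 with limma. It was also lost without low-ratio library 108 (0.0577), 114 (0.107), 119 (0.108) or 133 (0.131) or high-ratio library 1015 (0.149) or 1017 (0.136), each a limma adjusted p. In the authors' deposited table, Tek had a log2 fold change of 0.63 with an adjusted p of 0.00138.

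The 1 call in 9 (also 1 of 9 at an unadjusted p under 0.05, against 21.7% of all genes) stood against 2.88% of all 15893 genes tested in preadipocytes, 0.535% upwards and 2.35% downwards. Groups did not overlap in 1 of 9 genes, against 21.1% of all genes tested. The other members did not pass. The junction gene Cdh5 had 998, 1124, 1374 and 759 normalized counts in low-ratio libraries 108, 114, 119 and 133, against 499, 1255 and 1115 in high-ratio libraries 1015, 1017 and 1019 (log2 fold change 0.23 ± 0.33 SE, limma adjusted p = 0.718). The groups overlapped, and the lowest value of all 7 libraries was in high-ratio library 1015. The growth factor receptor Kdr had 271, 295, 355 and 186 in the low-ratio libraries, against 249, 431 and 282 in the high-ratio libraries, in the same order (−0.21 ± 0.27 SE, limma adjusted p = 0.691). Low-ratio library 133 was the lowest and high-ratio library 1017 the highest.

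The second junction gene, Cldn5, had 284, 405, 393 and 214 normalized counts in low-ratio libraries 108, 114, 119 and 133, against 330, 508 and 396 in high-ratio libraries 1015, 1017 and 1019 (−0.37 ± 0.26 SE, limma adjusted p = 0.447). Its extremes were the same libraries as those of Kdr. The other growth factor receptor, Flt1, ran from 90.3 to 487 on low-ratio and from 124 to 271 on high-ratio milk (0.16 ± 0.52 SE). Tie1 averaged 238 ± 69.1 (SD, n = 4) on low-ratio and 247 ± 90.3 (SD, n = 3) on high-ratio milk (−0.04 ± 0.31 SE), and Emcn 82.5 ± 27.2 on low-ratio and 91.5 ± 31.3 on high-ratio milk (−0.15 ± 0.34 SE). Eng averaged 2069 ± 266 on low-ratio and 1904 ± 217 on high-ratio milk (0.12 ± 0.13 SE), and Egfl7 144 ± 70.0 on low-ratio and 156 ± 71.6 on high-ratio milk (−0.20 ± 0.49 SE). The 9 log2 fold changes had a median of −0.04, beside 0.04 over all genes tested, and 4 of the 9 lay above 0, beside 54.1% of all genes.

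A ligand of Tek, Angpt1, moved the other way in the same libraries. It is named because it alone passed among the 26 tested genes of the pathway list given below. A link between Tek and Angpt1 was not tested. Angpt1, which encodes angiopoietin-1, the activating ligand that perivascular cells supply, had 690, 786, 627 and 839 normalized counts in low-ratio preadipocyte libraries 108, 114, 119 and 133, against 1590, 1479 and 1359 in high-ratio libraries 1015, 1017 and 1019. All low-ratio libraries lay below all high-ratio libraries. It fell by 1.01 on the log2 scale (SE 0.14, limma adjusted p = 0.0225), and the authors' deposited table gives −1.0 with an adjusted p of 1.62e-08. After removing a trend on GC and length its log2 fold change was −0.61 (limma, adjusted p = 0.0709), and leaving out the trend and robust options gave an adjusted p of 0.0876 with limma. Without low-ratio library 108 (0.0586), 114 (0.0577), 119 (0.0519) or 133 (0.0648), or high-ratio library 1015 (0.078) or 1017 (0.0896), the call was also lost by limma adjusted p. In progenitors Angpt1 averaged 644 ± 52.5 and 625 ± 119 normalized counts (SD, n = 4 each) on low-ratio and high-ratio milk.

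In progenitors, the contrast by which the genes were picked, 8 of the 9 had higher mean log2 values on low-ratio milk and Tek did not. Cdh5 had 1980, 3339, 2120 and 1143 normalized counts in low-ratio libraries 108, 114, 119 and 133, against 1503, 1109, 871 and 998 in high-ratio libraries 1015, 1017, 1018 and 1019. In 3 low-ratio libraries it lay above every high-ratio library, and 133 lay among them. The log2 fold change was 0.87 ± 0.29 (SE), 1.82-fold. Kdr had 690, 835, 567 and 360 in the low-ratio libraries, against 419, 321, 265 and 415 in the high-ratio libraries, in the same order (0.75 ± 0.26 SE, 1.68-fold). Here too library 133 fell within the range of the high-ratio libraries.

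The remaining members had smaller differences in progenitors. Cldn5 had 502, 624, 588 and 265 normalized counts in low-ratio libraries 108, 114, 119 and 133, against 340, 319, 333 and 362 in high-ratio libraries 1015, 1017, 1018 and 1019 (0.47 ± 0.25 SE). Library 133 was below all high-ratio libraries and the other 3 were above them. Emcn had 200, 221, 103 and 76.5 on low-ratio milk, against 101, 118, 88.8 and 103 on high-ratio milk (0.42 ± 0.34 SE). Tie1 had 422, 521, 336 and 162 on low-ratio milk, against 290, 260, 205 and 323 on high-ratio milk (0.31 ± 0.33 SE). Flt1 had 377, 775, 267 and 152 on low-ratio milk, against 229, 215, 283 and 275 on high-ratio milk, with the libraries of each gene in the same order (0.41 ± 0.41 SE). In these 3 genes library 114 was the highest and library 133 the lowest of all 8.

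Egfl7 had 105, 132, 187 and 142 normalized counts in progenitor libraries 108, 114, 119 and 133 on low-ratio milk, against 161, 70.7, 158 and 60.0 in libraries 1015, 1017, 1018 and 1019 on high-ratio milk (0.43 ± 0.37 SE). Its high-ratio libraries split into a higher and a lower pair. Eng averaged 2959 ± 526 on low-ratio and 2717 ± 97.4 on high-ratio milk (SD, n = 4 each; 0.11 ± 0.12 SE). Tek had 9362, 5855, 8890 and 9446 on low-ratio milk, against 8297, 10621, 9435 and 6637 on high-ratio milk (−0.07 ± 0.18 SE). Library 114, the highest in most of the other genes, was the lowest in Tek.

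In each of the 9 genes the milk groups of the progenitors overlapped (they were apart in 4.04% of all 15973 genes tested). The 9 log2 fold changes had a median of 0.42, and 8 lay above 0, beside 49.5% of all genes, a share from which nothing is read because the genes were chosen on this contrast. That median was 0.19 without low-ratio library 114 and 0.69 without low-ratio library 133. Without library 114 the log2 fold change of Flt1 was −0.0040 and that of Tek 0.10.

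**Figure D2:**
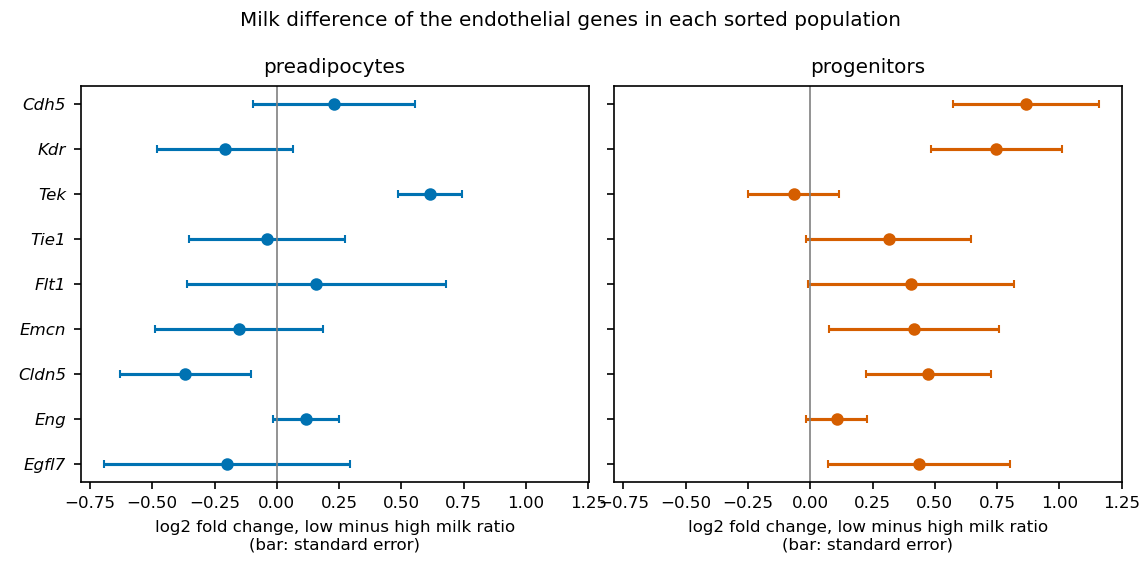
Log2 fold change, low minus high milk ratio (horizontal axis), of each of the 9 genes in preadipocytes (left) and progenitors (right), with its standard error. In preadipocytes Tek lies at 0.61 and the others between −0.37 and 0.23, while in progenitors Tek lies at −0.07 and the others between 0.11 and 0.87.

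The milk differences of the populations are set side by side without a test, because one side of the difference chose the genes. Preadipocytes minus progenitors, the log2 fold changes differed by −0.95 ± 0.40 (SE) in Kdr, −0.84 ± 0.38 in Cldn5, −0.64 ± 0.48 in Cdh5 and 0.68 ± 0.25 in Tek. The differences of Egfl7 (−0.64 ± 0.65), Emcn (−0.57 ± 0.50), Tie1 (−0.35 ± 0.49), Flt1 (−0.25 ± 0.72) and Eng (0.01 ± 0.18) were smaller than their SE or close to it.

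Within groups, most of the genes went up and down together from library to library. To see this apart from the milk, each library was taken as its deviation from the mean of its own group in log2(normalized count + 1). In low-ratio preadipocytes, library 133 had the lowest value of its group in 7 of the 9 genes, and in high-ratio preadipocytes library 1015 had the lowest in 7 and library 1017 the highest in 6. In low-ratio progenitors, library 114 had the highest value in 7 and library 133 the lowest in 6. In high-ratio progenitors no library had the highest value in more than 3 or the lowest in more than 4. The libraries numbered 133 of both populations thus stood at the low end, while the highest libraries of the low-ratio groups were 119 in preadipocytes (4 of 9) and 114 in progenitors. The share of all genes is not given here, and other lists below had some of the same extremes. Preadipocyte library 133 was lowest in 7 of 10 leukocyte, 2 of 10 pericyte and 0 of 12 adipocyte precursor genes. Preadipocyte library 1015 was lowest in 13 of 18 endothelial transcription factors, 8 of 12 adipocyte precursor and 2 of 10 leukocyte genes.

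**Figure D3:**
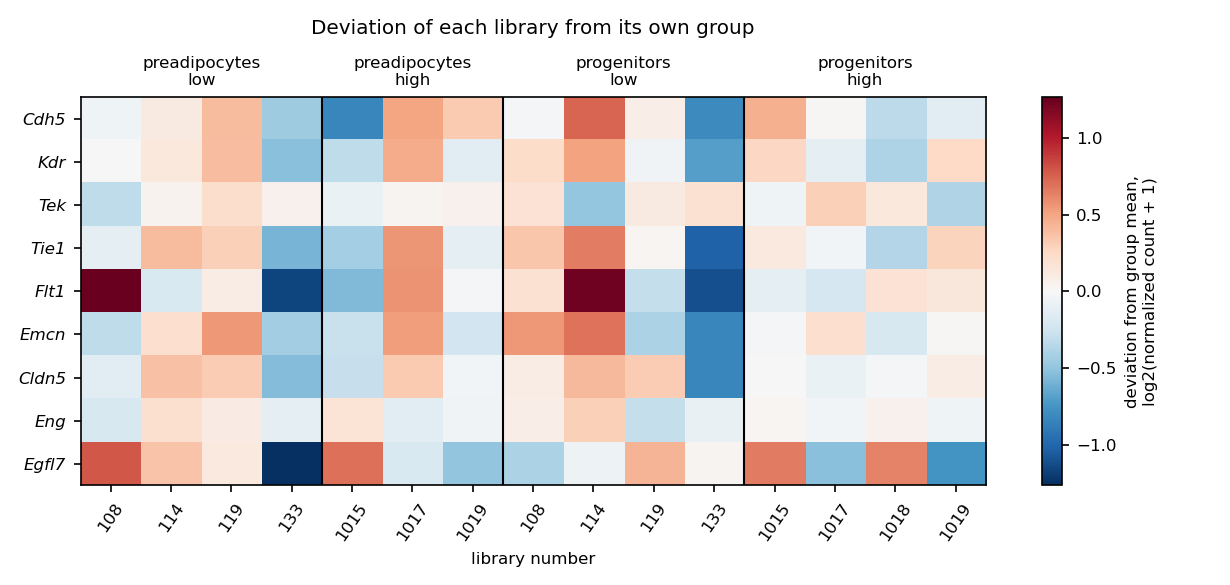
Deviation of each library (columns, by number, grouped by population and milk) from the mean of its own group in log2(normalized count + 1), for the 9 genes (rows); red is above and blue below the group mean. Library 133 is blue for most genes in both populations. In progenitor library 114 the row of Tek (−0.49) runs against the other rows except that of Egfl7 (−0.07).

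The strength of this shared movement differed between genes. Setting Tek and Eng aside, a grouping made after the values were seen, the 21 pairs of the other 7 genes had a median Pearson r of 0.64 over the 7 preadipocyte libraries (range −0.10 to 0.97) and of 0.80 over the 8 progenitor libraries (−0.39 to 0.97). The 8 pairs with Tek had a median of 0.34 in preadipocytes and of −0.53 in progenitors, and those with Eng 0.19 and 0.47. The points share library, depth and normalization, so these coefficients are descriptions. Against the mean of the other 8 genes, Kdr had r = 0.95 (rho 1.0) in preadipocytes and 0.84 (rho 0.69) in progenitors. Without the 2 libraries farthest from the median, its r was 0.94 in preadipocytes and 0.31 in progenitors. For Cdh5 r was 0.66 (rho 0.86) in preadipocytes and 0.90 (rho 0.62) in progenitors, and without those 2 libraries 0.19 and 0.42. In progenitors, leaving out those 2 libraries also took r to 0.19 for Tie1 (0.88 with all 8 libraries), 0.07 for Emcn (0.80), −0.14 for Cldn5 (0.85) and −0.15 for Flt1 (0.84). In progenitors the likeness of these genes to the mean of the other 8 thus rested largely on 2 libraries. The pairwise median of 0.80 was not recomputed without them. Egfl7 had r = 0.31 (rho 0.18) in preadipocytes and −0.17 (rho −0.26) in progenitors.

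Other genes that followed the same library pattern were looked for among 12141 genes with a mean of at least 50 in both tables. The likeness was the Pearson r, over all 15 libraries, between the deviations of a gene and the mean deviation of the 9. The median gene had r = −0.02. The 10 most alike were Cd93 (0.93), Aqp1 (0.89), Rgs5 (0.89), Fam53b (0.87), Gpihbp1 (0.87), Jak3 (0.86), C130074G19Rik (0.86), Pgm2l1 (0.86), Pecam1 (0.85) and Lap3 (0.85). Cd93 is a surface receptor of endothelium, Gpihbp1 carries lipoprotein lipase across capillaries, Aqp1 is a water channel, and Pecam1 is the endothelial marker CD31. Without the 2 farthest libraries, both numbered 133, r was 0.86 for Cd93, 0.72 for Aqp1, 0.80 for Rgs5, 0.58 for Gpihbp1 and 0.75 for Pecam1. For Pgm2l1, Lap3, Jak3, C130074G19Rik and Fam53b it was 0.73, 0.73, 0.71, 0.65 and 0.62, each above Gpihbp1.

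Pecam1 had 594, 748, 810 and 409 normalized counts in low-ratio preadipocyte libraries 108, 114, 119 and 133, against 566, 962 and 619 in high-ratio libraries 1015, 1017 and 1019 (−0.17 ± 0.27 SE, limma adjusted p = 0.755). In progenitors it had 1062, 1628, 1086 and 787 in low-ratio libraries 108, 114, 119 and 133, against 746, 932, 551 and 819 in high-ratio libraries 1015, 1017, 1018 and 1019. The highest and lowest libraries were those of Kdr in preadipocytes on both milks and in progenitors on low-ratio milk. Rgs5, a marker of pericytes, the cells wrapped around capillaries, had 821, 1259, 1391 and 614 in low-ratio preadipocytes, against 924, 1556 and 1149 in high-ratio preadipocytes, in the same order of libraries. In progenitors Rgs5 had 1518, 2037, 1255 and 827 on low-ratio milk, against 1032, 970, 837 and 1279 on high-ratio milk. Its order of libraries within the low-ratio progenitors, 114, 108, 119 and 133, was that of Kdr, Tie1, Flt1 and Emcn.

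Of 38 other endothelial genes, 34 were tested in preadipocytes. By limma 0 passed, with 4 at an unadjusted p under 0.05, against 21.7% of all genes, and 15 lay above 0 with a median log2 fold change of −0.04, beside 0.04 over all genes. The groups were apart in 4 of the 34, against 21.1% of all genes: Mmrn2 (−0.73), Calcrl (−0.34), Tspan7 (0.22) and Ephb4 (0.20), named after their values were seen. Low-ratio library 133 was the lowest of its group in 23 of the 34 genes and high-ratio library 1017 the highest of its group in 23. In progenitors 35 were tested and 0 passed by limma, as did 0% of all genes, with 5 at an unadjusted p under 0.05, against 6.88% of all genes. Endothelial markers were picked on that contrast, so the list is not independent of it. There 28 lay above 0 with a median of 0.26 beside −0.0037 over all genes, and library 114 was the highest of the low-ratio group in 19 of 35 and library 133 the lowest in 18. Ramp2, Ackr1 and Efnb2 had the most counts of the list in progenitors, not corrected for length, and did not go one way with the milk there. Ackr1, a chemokine-binding receptor of venules, averaged 1997 ± 362 (SD, n = 4) and 1710 ± 551 (SD, n = 3) in preadipocytes on low-ratio and high-ratio milk, and 3227 ± 1413 and 2296 ± 187 (SD, n = 4 each) in progenitors (log2 fold changes 0.26 ± 0.23 and 0.40 ± 0.24 SE). Ramp2, a partner of the adrenomedullin receptor, had log2 fold changes of 0.18 ± 0.11 in preadipocytes and −0.27 ± 0.16 in progenitors. Efnb2, an ephrin of arterial endothelium, had 0.37 ± 0.15 in preadipocytes and −0.26 ± 0.14 in progenitors.

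Transcription factors of endothelium were tested in 18 of 20 cases in preadipocytes and in all 20 in progenitors. By limma 0 passed in either population. At an unadjusted p under 0.05 there were 3 and 1, against 21.7% and 6.88% of all genes. In preadipocytes 9 of 18 lay above 0, beside 54.1% of all genes, with a median log2 fold change of 0.06 beside 0.04. In progenitors 15 of 20 lay above 0, beside 49.5%, with a median of 0.35 beside −0.0037. Endothelial markers were picked on the progenitor contrast, so this list is not independent of it. Klf4, Klf2 and Ets2, the factors with the most counts in progenitors, not corrected for length, had log2 fold changes of 0.54 ± 0.18 (SE, limma adjusted p = 0.138), 0.30 ± 0.12 (0.194) and 0.64 ± 0.26 (0.197) in preadipocytes, and of −0.04 ± 0.16, −0.10 ± 0.12 and 0.20 ± 0.16 in progenitors. These factors are also made by stromal cells as early response genes.

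Genes of the vascular growth factor, angiopoietin and endothelial BMP pathways, ligands and partners of the receptors above, numbered 29. In preadipocytes 26 were tested and 1, Angpt1, passed, in the direction lower on low-ratio milk, where 2.35% of all genes passed in that direction and 2.88% in either, so the count is near the background. Of the 26, 17 lay above 0 with a median of 0.16, beside 54.1% and 0.04 over all genes. In progenitors 27 were tested and 0 passed (3 at an unadjusted p under 0.05 by limma, against 6.88% of all genes). There 19 lay above 0, beside 49.5% of all genes, with a median of 0.24 beside −0.0037. As endothelial markers were picked on the progenitor contrast, this list is not independent of it either. Tgfbr2, the receptor of TGF-beta and the gene with the most counts among these, not corrected for length, had a log2 fold change of 0.50 ± 0.13 in preadipocytes (SE, limma adjusted p = 0.0697), with groups apart as in 21.1% of all genes, and one of −0.06 ± 0.07 in progenitors.

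Markers of neighbouring cell types were read in the same libraries. The summed level of the 7 genes without Tek and Eng was 41.2 to 82.1 CPM in preadipocytes on low-ratio milk and 50.3 to 89.3 on high-ratio milk, and 54.9 to 166 in progenitors on low-ratio milk and 51.6 to 72.8 on high-ratio milk. The 11 pericyte and smooth muscle genes summed to 257 to 321 CPM in preadipocytes on low-ratio milk and 247 to 287 on high-ratio milk, and to 300.1 to 370 in progenitors on low-ratio milk and 303 to 329 on high-ratio milk. Of the 10 tested, 6 lay above 0 in preadipocytes and 5 in progenitors, beside 54.1% and 49.5% of all genes. By limma 0 passed in either, beside 2.88% and 0% of all genes. At an unadjusted p under 0.05 by limma there were 0 and 1, against 21.7% and 6.88% of all genes.

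The 10 leukocyte genes summed to 12.1 to 26.5 CPM in preadipocytes on low-ratio milk and 16.2 to 20.3 on high-ratio milk, and to 23.4 to 36.7 in progenitors on low-ratio milk and 14.6 to 23.1 on high-ratio milk. The progenitor groups did not overlap in this sum, but only narrowly, at 23.4 against 23.1. There 8 of the 10 genes lay above 0, beside 49.5% of all genes, and in preadipocytes 5 of 10, beside 54.1%. The median log2 fold change was 0.56 in progenitors, beside 0.42 for the 9 endothelial genes and −0.0037 over all genes. In preadipocytes it was 0.10, beside −0.04 for the 9 and 0.04 over all genes. By limma 0 of 10 passed in either population. At an unadjusted p under 0.05 there were 0 in preadipocytes and 1 in progenitors, against 21.7% and 6.88% of all genes. The groups were apart in 1 of 10 genes in each population, against 21.1% and 4.04% of all genes. Of the 12 adipocyte precursor genes 1, Lum, a collagen-binding proteoglycan, passed in preadipocytes, lower on low-ratio milk (−0.77 ± 0.11 SE, limma adjusted p = 0.023), where 2.88% of all genes passed. Of the 12, 7 lay above 0 in preadipocytes and 5 below, where 54.1% of all genes lay above 0 (median 0.18, beside 0.04 over all genes). The groups were apart in 5 of the 12, against 21.1% of all genes. These were Lum, Ly6a (−0.49 ± 0.13 SE), Col1a1 (0.47 ± 0.12 SE), Pdgfrb (0.28 ± 0.11 SE) and Cd34 (0.19 ± 0.09 SE). Ly6a, Pdgfrb and Cd34 were named after their values were seen. In progenitors 0 passed (1 at an unadjusted p under 0.05 by limma, against 6.88% of all genes). There 11 of 12 lay below 0, where 49.5% of all genes lay above 0 (median −0.05, beside −0.0037 over all genes). The list summed to 83353 to 98642 in preadipocytes on low-ratio milk and 67263 to 79123 on high-ratio milk, and to 111180 to 122177 in progenitors on low-ratio milk and 122646 to 126399 on high-ratio milk. The milk groups did not overlap in this last sum in either population, but the sum was mostly the collagen gene Col1a1, whose milk groups did not overlap either. Col1a1 alone averaged 77909 CPM in preadipocytes on low-ratio and 57808 on high-ratio milk, and 103151 in progenitors on low-ratio and 113686 on high-ratio milk. No gene of these lists was at 0 in every library. The part of these cell types in the values of the endothelial genes was not tested.

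**Figure D4:**
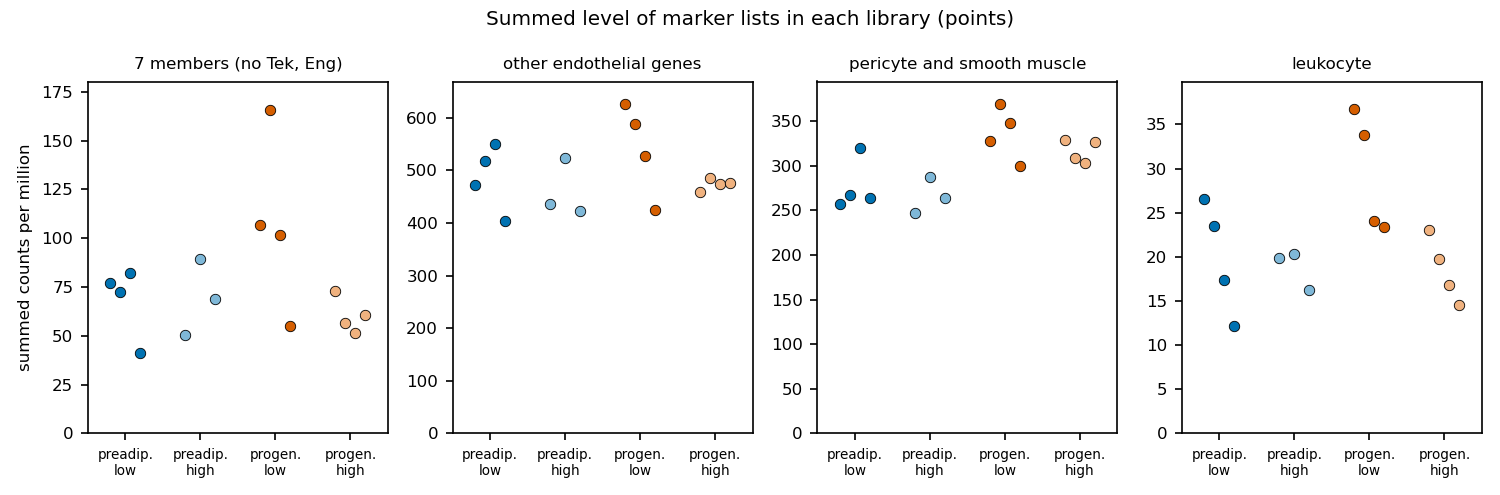
Summed CPM (vertical axes from 0) of 4 lists of genes in each library (points), by population and milk. In progenitors on low-ratio milk the 7 endothelial genes reach from 54.9 to 166, and the leukocyte genes lie at 23.4 to 36.7, above the 14.6 to 23.1 of the high-ratio libraries.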

How the data were processed

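The 15 libraries were built with the Universal Plus mRNA kit of NuGEN (labels' protocols). The authors used Salmon 0.14.2, DESeq2 1.28.1 and the builds GRCm38 and mm10, per the submitters' processing notes. The sources used here do not state how strand was handled. The deposited sample values are on the log2-like scale of a variance stabilizing transformation, 1 table per population, with a floor of 7.12 in preadipocytes and 7.70 in progenitors. The authors' deposited log2 fold changes, p-values and adjusted p-values were used as a second source. All sample columns were mapped through their names.

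The transformation was inverted in closed form to normalized counts. At a mean of at least 100, fold changes of the recomputed group means differed from those of the authors by a median of 0.00304 in preadipocytes and 0.000751 in progenitors (log2). Depth was estimated from the step between low values, of which 37.7% to 81.5% came out whole within 0.02 over genes with 1 transcript. Because the values are not counts, the comparison of milks used limma 3.58.1 (R 4.3.3) on log2(normalized count + 1), low minus high, with trend and robust options, within each table, requiring a mean of 10 or more, and with Benjamini-Hochberg adjustment over all genes tested at 0.05. Fold changes on this scale understate those of low genes. Symbols, positions and lengths came from GENCODE M21 (GRCm38), matching 23096 of 23118 and 23322 of 23347 gene IDs, and upstream sequences from RefSeq. The fit was tested on simulated data.

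The 9 genes, the lists and the tests were chosen with earlier results of these data known. The genes named were the 9, those of each list past the threshold in preadipocytes (up to 6) or among its 3 highest in progenitors, Pecam1, Pdgfra, Cd24a and Ptprc, and the 10 most alike by library. Some genes whose milk groups did not overlap were named besides, after their values were seen. Alternatives were the pseudocount, the filter, the scale, trimmed-mean (TMM) or equal-total scaling, computed directly, moderation, GC content with length, and leaving out each library.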

Additional observations from a re-analysis of the deposited data

Results flagged for a closer look

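Tek in progenitor library 114 on low-ratio milk had 5855 normalized counts, far below the 8890 to 9446 of the other 3 libraries of its group. Its gap to the nearest of them was 0.873 of the range of the group, above the critical value of 0.829 for 4 samples. It was the only such value in 27 groups of 4 libraries examined over the 9 genes. Chance gives about 1 such value in 20 groups, so 1 in 27 is near what chance gives.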

How the results depend on the processing

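The count of the 9 genes that passed in preadipocytes was 1 (Tek) under 7 of 9 other settings, 0 without trend and robust options and 0 after removing a GC and length trend, and 0 to 1 without 1 library. Tek kept its direction in all of these, with log2 fold changes of 0.53 to 0.72. Of the other endothelial genes 0 passed under every setting. The median log2 fold change of the 9 genes in progenitors was 0.18 to 0.48 under other settings and 0.19 to 0.69 without 1 library. The median difference of the milk effects, preadipocytes minus progenitors, was −0.57, −0.21 on the variance-stabilized values, which shrink low genes, and −0.69 to −0.21 without 1 library. With the library number as a replicate block it was −0.50. Same-numbered libraries of both populations deviated together only weakly (r from −0.06 to 0.09), and 2 of 7 were most alike to their own number, so the numbers were not taken as pairs. Over all genes in preadipocytes, the 458 calls (85 higher, 373 lower) became 6 without trend and robust options, 12 (9 higher, 3 lower) with the GC and length trend removed, and 2 to 1159 without 1 library. The cause was not tested.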

Other observations

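Among markers of other cell types, erythroid genes had lower values on low-ratio milk in all 5 tested in preadipocytes (median log2 fold change −1.01) and in all 6 tested in progenitors (−0.62). By limma 0 passed the threshold, with 4 and 0 at an unadjusted p under 0.05, against 21.7% and 6.88% of all genes. Their summed level was 32.2 to 69.5 CPM in preadipocytes on low-ratio milk and 58.0 to 224 on high-ratio milk, and 80.4 to 321 in progenitors on low-ratio milk and 135 to 698 on high-ratio milk. The 224 and the 698 were both of high-ratio library 1017, the highest of its group in all 5 and all 6 genes. The sums of the other high-ratio libraries lay within the low-ratio range in both populations.

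Lymphatic endothelial genes, a vessel type of its own, had 0 of 5 past the threshold in preadipocytes and 0 of 7 in progenitors by limma. At an unadjusted p under 0.05 by limma there were 2 and 1, against 21.7% and 6.88% of all genes. Lyve1, a hyaluronan receptor of lymphatic vessels and some macrophages, averaged 51.2 ± 20.8 normalized counts (SD, n = 4) in preadipocytes on low-ratio milk and 20.7 ± 1.90 (SD, n = 3) on high-ratio milk, with groups apart as in 21.1% of all genes (log2 fold change 1.19 ± 0.37 SE, limma adjusted p = 0.112). In progenitors it averaged 61.1 ± 28.8 on low-ratio and 80.6 ± 39.6 on high-ratio milk (SD, n = 4 each; −0.43 ± 0.49 SE). Prox1, the transcription factor that sets lymphatic identity, had log2 fold changes of −0.41 ± 0.33 SE in preadipocytes and 0.24 ± 0.35 SE in progenitors. Platelet genes had a median log2 fold change of −0.94 over 3 tested in preadipocytes and 0.22 over 3 in progenitors, Schwann cell genes 0.31 and 0.34 over 4 each, skeletal muscle genes −0.35 over 2 and 0.14 over 3, and adipocyte genes −0.04 over 3 and 0.44 over 2. Epithelial genes were too low to be tested, at no more than 1.03 CPM in sum.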
